A study of Mus musculus with 2 samples.

Results

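The replication-dependent histone genes are the protein-coding genes whose symbol begins with Hist1h, Hist2h, Hist3h or Hist4h in the GENCODE M21 annotation. The symbol alone chose them, and 67 of the 55536 genes in the tables (22028 of them protein-coding) met the rule. They comprise 6 genes of the linker histone H1, 18 of H2A, 18 of H2B, 12 of H3 and 13 of H4. Of these, 54 lie in the Hist1 cluster on chromosome 13 (chr13:21715763-23934851, mm10), 10 in Hist2 on chromosome 3 (chr3:96219865-96270132), 2 in Hist3 on chromosome 11 (chr11:58948920-58956830) and 1, Hist4h4, on chromosome 6 (chr6:136801553-136804415).

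RNA came from hearts of mouse embryos of strain B6NCrl at embryonic day 12.5, with male and female embryos pooled. Each of 2 libraries, the biological replicates of a single group, started from 10 ng of RNA, was primed with oligo-dT and was cut by Nextera tagmentation. Synthetic ERCC RNAs were spiked into both at 1000 times the amount for a single cell. The labels name 1 donor identifier and separate biosamples for them, and no treatment or genotype contrast, so levels and the difference between the libraries are what the design offers, and p-values concern only these libraries. Replicate 1 held 34248993 gene counts and replicate 2 held 31394912. Of the markers of the labelled tissue, all 6 heart genes were detected, led by Actc1 at 9388 ± 77.2, Myh7 at 4496 ± 177 and Myl7 at 4479 ± 244 TPM (a level scaled by gene length, mean ± SD, n = 2). All 4 erythroid markers were also detected, with Hbb-y at 25868 ± 2168 TPM, Hba-x at 4735 ± 187 TPM and Alas2 at 123 ± 1.82 TPM. Of 3 leukocyte markers 2 were detected, Lyz2 at 71.1 ± 4.26 TPM and C1qb at 14.9 ± 0.31 TPM, while Ptprc stood at 0.65 and 0.97 TPM. The hepatocyte markers reached 146.9 TPM in sum in replicate 1 but 29.5 in replicate 2, Afp at 97.5 and 18.1, Apoa2 at 36.4 and 8.31 and Alb at 8.88 and 1.78 TPM, and all 4 of 4 were called lower in replicate 2. The part of these cells in the histone levels was not tested.

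Replication-dependent histones package newly copied DNA, and their genes are transcribed mainly in S phase. Their mRNAs are unusual among animal mRNAs because they normally have no poly(A) tail. The transcript ends just past a conserved stem-loop, which the stem-loop binding protein Slbp holds while the U7 small nuclear ribonucleoprotein directs cleavage. Some of these genes can also make longer, polyadenylated mRNAs from a signal downstream of the stem-loop, a form known from differentiating cells. A library primed with oligo-dT therefore does not give the amount of histone mRNA in a tissue, only of those molecules from which oligo-dT primed.

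The sequences that define this ending were read from the GENCODE M21 transcripts. A whole 16-base stem-loop has 6 bases, a loop of 4 and 6 bases that pair with the first. The search used a histone pattern whose variable stem bases were limited to C or T before the loop and A or G after it. Pairing was not part of the search. Such a stem-loop was found in an annotated transcript of 46 of the 67 genes, against 24 of 21884 other protein-coding genes (0.11%). The lines below give 30 bases around it for 8 genes that show 5 of its 8 forms, the commonest among them, 5′ to 3′ on the gene's strand, with the stem-loop in capitals. The coordinates are those of the whole gene in mm10.
Hist1h2ap (chr13:21833026-21833507, minus strand): aaaaaaaaaaaaGGCTCTTTTCAGAGCCat
Hist1h2ae (chr13:23570517-23571220, minus strand): aaaaaaaacaaaGGCTCTTTTCAGAGCCat
Hist1h1c (chr13:23738808-23740367, plus strand): aacaatccaaaaGGCTCTTTTCAGAGCCac
Hist3h2a (chr11:58954685-58956830, plus strand): acagacaccaaaGGCTCTTTTCAGAGCCac
Hist1h3c (chr13:23744973-23745602, minus strand): tatttaaaaaaaGGCTCTTTTAAGAGCCac
Hist1h4d (chr13:23581598-23582735, plus strand): ccaaaaaccaaaGGCCCTTTTCAGGGCCac
Hist1h4i (chr13:22040636-22041362, minus strand): atgctacttaaaGGCCCTTTTTAGGGCCac
Hist1h4b (chr13:23757013-23757409, plus strand): actgttacaaaaGGTCCTTTTCAGGACCac
The 46 genes held 8 forms of the stem-loop, and 26 genes shared the form of Hist1h2ap, Hist1h1c and Hist3h2a. Counted from 1 at the 5′ end of the stem-loop, with the base of the commonest form first, the paired changes T4C and A13G were present in all 12 H4 genes that had a stem-loop and in 0 of the 34 genes of other classes. Hist1h4b and Hist1h4j carried C3T and G14A besides. The stem of the H4 genes thus differed from that of the other classes while its bases still paired, within the changes that the search pattern allowed.

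The annotated end of the gene model relative to the stem-loop divided the genes into 4 kinds. The model ended more than 100 bases past the stem-loop in 23 genes, within 100 bases past it in 23, and before a whole stem-loop, often at the stop codon, in 17. In the remaining 4, Hist1h2bc, Hist1h2bq, Hist1h2br and Hist2h2be, a long 3′ end held no match. A gene with several models was placed by any such model, whatever its share of the reads. The match is to letters and does not show where the RNA in these libraries ended. A polyadenylation signal (AATAAA or ATTAAA on the sense strand) stood in the last 40 bases of a model in 12 of the 23 long-ended genes. It stood there in 17 of all 67 genes (25.4%), and in 48.7% of 58797 protein-coding transcripts. The members were counted as genes with a signal in any model of any type, so the shares are not of like units.

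All members together held 0.0692% of gene counts in replicate 1 (exact Clopper-Pearson 95% interval 0.0684% to 0.0701%) and 0.0691% in replicate 2 (0.0682% to 0.0701%), intervals that cover counting error only. Their TPM summed to 2089.9 and 2109, or 2099.5 ± 13.6 (SD, n = 2). A level of at least 1 TPM in both libraries, taken as detected, was reached by 45 of the 67 genes (67.2%), beside 56.6% of all protein-coding genes. A further 7 genes reached it in 1 library, and 15 stayed below it in both. The median member stood at 2.37 and 2.72 TPM, beside 3.24 and 3.27 TPM for all protein-coding genes. By mean TPM, 1 gene exceeded 100, 10 lay from 10 to 100, 38 from 1 to 10, and 18 under 1.

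**Figure D1:**
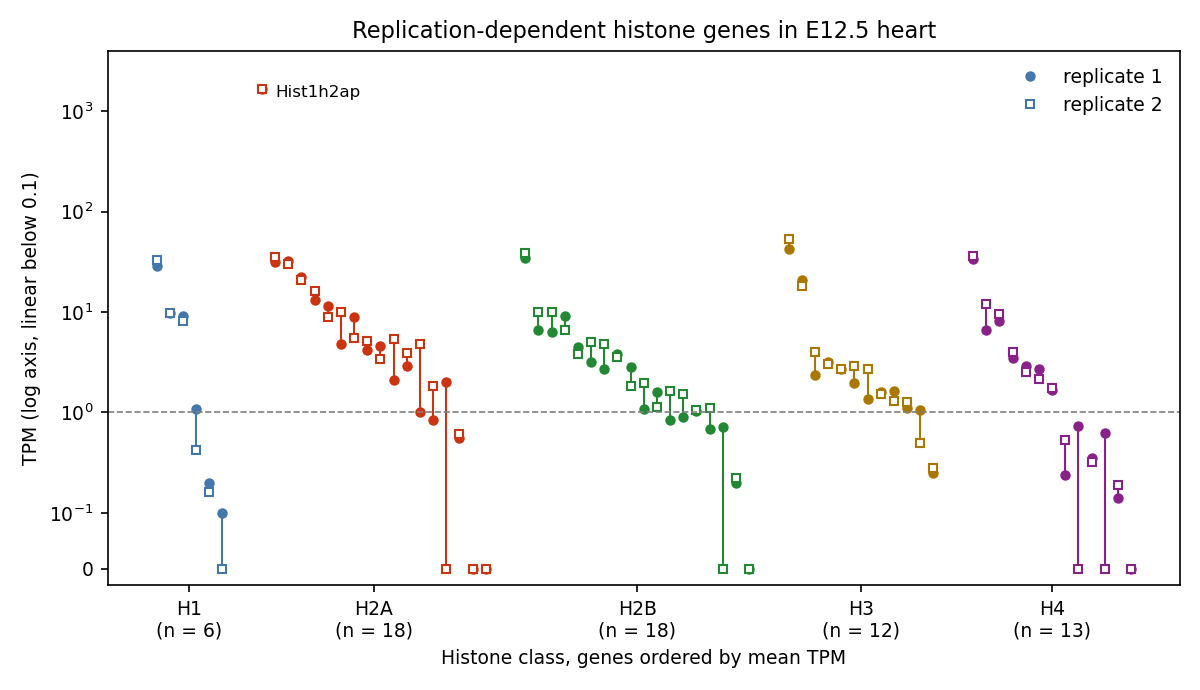
TPM of each of the 67 genes in replicate 1 (filled circles) and replicate 2 (open squares), grouped by histone class and ordered by mean; a line joins the libraries and the dashed line marks 1 TPM, on a log axis that is linear below 0.1. Hist1h2ap stands at 1676 and 1652 TPM, and every other gene lies below 53 TPM.

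Most of the signal was assigned to a single H2A gene, Hist1h2ap. Its level was 1676 and 1652 TPM (1664 ± 16.9), from 15838.7 and 14121.5 expected counts (reads shared out among the genes they fit). This was 34.8 times the next gene by mean TPM and 80.2% and 78.3% of the TPM of all 67 genes. In counts it took 66.8% (66.2% to 67.4%) and 65.0% (64.4% to 65.7%) of the members' reads, with exact Clopper-Pearson intervals. Without it the other 66 genes summed to 414 and 457 TPM, or 435 ± 30.5. Hist1h2ap ranked 46 among protein-coding genes. These values rest on how reads were assigned between Hist1h2ap and its near copy Hist1h2ao, described below.

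The transcript of Hist1h2ap carried a run of 12 adenines directly before the stem-loop, in the 3′ untranslated region, as its line above shows. The bases from 446 onward of the 482-base model show its approach, with the run in capitals.
Hist1h2ap, run of adenines: gaaaagAAAAAAAAAAAAggctcttttcag
Hist1h2ao, run of adenines: gaaaagAAAAAAAAAAAAggctcttttcag
This feature was looked for after the levels were seen. A run of at least 12 was found in 3 members, Hist1h2ap, Hist1h2ao and Hist1h2ac (4.48%), and in 12.6% of 21951 protein-coding genes. Of the 46 genes with a stem-loop, Hist1h2ap and Hist1h2ao had the most adenines in the 20 bases before it, 16 each, followed by Hist1h2ae with 13 and Hist1h2ab with 12, while the median was 8. Hist1h2ae stood at 33.6 ± 2.91 TPM and Hist1h2ab at 14.7 ± 2.24 TPM. The run of 15 in the model of Hist1h2ac, at 0.58 ± 0.042 TPM, lies past its stem-loop, and 9 adenines stand in the 20 bases before it. Whether oligo-dT primed within the run was not tested.

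**Figure D2:**
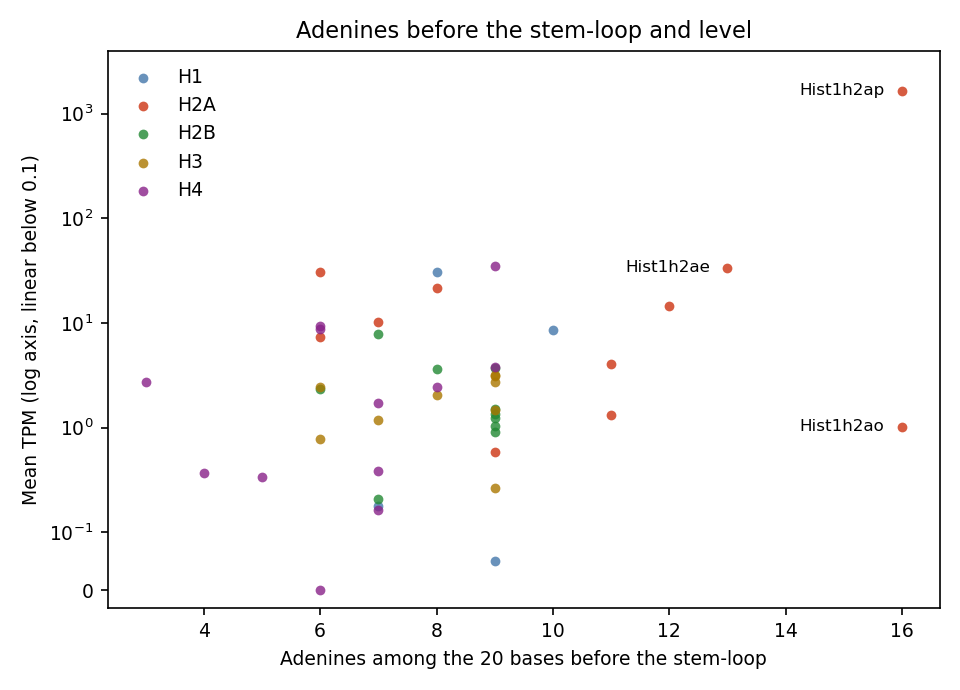
Mean TPM (log axis, linear below 0.1) against the number of adenines among the 20 bases before the stem-loop, for the 46 genes with a whole stem-loop, coloured by class. Hist1h2ap and Hist1h2ao share 16 adenines and stand at 1664 and 1.02 TPM.

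Hist1h2ao, a near copy of Hist1h2ap, carried the same run but was assigned 19.1 counts in replicate 1 and 0 in replicate 2. The 2 models shared an identical stretch of 452 bases. Hist1h2ap had 30 further bases at its start, and Hist1h2ao had 28 further bases at its end, beyond the stem-loop. Of the 100-base windows of Hist1h2ap, 92.2% also occurred in Hist1h2ao and 7.83% occurred in no other annotated gene. The posterior SD of the count, the authors' measure of how uncertainly reads were assigned among loci, was 63.5 and 54.7 for Hist1h2ap (0.40% and 0.39% of its count) and 24.8 and 20.99 for Hist1h2ao. The models differ only in where they begin and end, so no 100-base window inside the shared stretch can place a read on either gene.

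The H2A genes overlap small miRNA models on the other strand, and the counting strand was not given in the sources used here. Such a model lay inside 17 members, all of them H2A. In 12 of the 17 the miRNA model had 0 counts in both libraries, among them the model inside Hist1h2ap. The model inside Hist1h2an, Gm44346 (chr13:21786875-21787015), was assigned 400.5 and 319.6 counts, with posterior SDs of 46.6 and 40.4. All 42 of its 100-base windows occurred, reversed, in Hist1h2ap and in 9 other H2A members, so those reads cannot be placed on a strand or gene here.

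The other core H2A genes were far lower. Hist1h2ae stood at 31.5 and 35.7 TPM, Hist2h2aa2 at 32.2 and 29.8 TPM, and Hist3h2a at 22.2 and 20.6 TPM. The values of Hist1h2ae and Hist2h2aa2 overlapped, and those of Hist3h2a lay below both. Hist1h2ab stood at 13.1 and 16.3 TPM and Hist1h2ag at 11.4 and 9.00 TPM. Hist1h2ak stood at 8.89 and 5.46 TPM, Hist2h2aa1 at 4.84 and 9.91, Hist1h2ai at 4.22 and 5.12, and Hist1h2ah at 2.87 and 3.92. The class summed to 1819 and 1804 TPM (1811 ± 10.2), of which all but 147 ± 6.68 was Hist1h2ap, and 13 of 18 genes were detected. The testis gene Hist1h2aa had no counts in either library, a floor of 3 counts or 8.76e-06% of the gene counts of replicate 1.

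H2B, the partner of H2A in the nucleosome, summed to 80.2 and 92.8 TPM (86.5 ± 8.96), with 12 of 18 genes detected. Hist1h2bc led at 34.2 and 38.5 TPM. Hist1h2bq stood at 6.56 and 9.92 TPM, Hist1h2br at 6.36 and 10.0 TPM and Hist3h2ba at 9.07 and 6.60 TPM, and these 3 overlapped each other. The testis gene Hist1h2ba had no counts.

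H3 summed to 80.8 and 91.4 TPM (86.1 ± 7.5), with 10 of 12 genes detected. Hist1h3i, the second highest member of all, stood at 42.8 and 52.9 TPM, on a model that ends at 411 bases without a stem-loop. Hist2h3b stood at 20.8 and 18.2 TPM and Hist1h3c at 2.37 and 3.99 TPM. The step from Hist2h3b down to Hist1h3c was larger than the spread between the libraries.

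H4 summed to 61.7 and 69.6 TPM (65.6 ± 5.56), with 7 of 13 genes detected. Hist1h4d led at 34.1 and 36.5 TPM, and all of its 100-base windows were unique. Hist1h4n stood at 6.56 and 12.04 TPM, overlapping Hist1h4i at 8.18 and 9.50 TPM. Hist4h4, alone in its cluster, stood at 0.35 and 0.32 TPM from 24 and 20 counts.

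The linker histone H1 summed to 48.7 and 51.2 TPM (49.9 ± 1.79), with 3 of 6 genes detected. Hist1h1c led at 28.6 and 32.7 TPM, above Hist1h1b at 9.69 and 9.74 TPM and Hist1h1e at 9.05 and 8.23 TPM. The testis linker histone Hist1h1t had 2 counts in replicate 1 and 0 in replicate 2. By cluster, Hist1 summed to 1994 ± 16.4 TPM (330 ± 33.2 without Hist1h2ap), Hist2 to 76.1 ± 0.13, Hist3 to 29.3 ± 2.87 and Hist4 to 0.34 ± 0.021. Both genes of Hist3 and 8 of 10 of Hist2 were detected, beside 35 of 54 of Hist1.

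The levels were also set beside the annotated ends. The 23 genes with an end more than 100 bases past the stem-loop had medians of 1.63 and 1.54 TPM and 45.2 and 34.2 counts, and 13 were detected. The 23 with an end within 100 bases had medians of 2.68 and 2.72 TPM and 26.4 and 29.1 counts, and 18 were detected. The 17 models that end before a stem-loop had medians of 1.59 and 3.92 TPM with 10 detected. The 4 genes with a long model without a match had 6.46 and 9.96 TPM, with all detected. Of these, Hist1h2bq and Hist1h2br had 88.2% and 89.2% of their TPM on 381-base models that end at the stop codon. In counts their long models held a larger part. A 2197-base model of Hist1h2br had 32.8 of 72.6 counts in replicate 1 and 54.1 of 109.7 in replicate 2. A 1254-base model of Hist1h2bq had 23.9 of 63.7 and 27.6 of 83.3. The medians of the long-ended genes were thus lower in TPM but higher in counts than those of the short-ended. TPM is divided by length, but the part of length in this difference between sets of genes was not tested.

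The TPM of the same gene also differed between the annotations in which the authors counted. Of 60 members with a level above 0 in the M21 and the older M4 tables, 14 had a model at least 1.2 times as long in M21, and 13 of these 14 had a lower TPM there (median ratio 0.46, range 0.12 to 1.45). The 42 genes whose models differed by under 5% in length had a median ratio of 0.96. Hist1h4d had 874.0 and 846.6 counts in M21 and 872.0 and 843.9 in M4, but its level was 34.1 and 36.5 TPM in M21 and 125.5 and 134.4 TPM in M4, and the M21 model is 2.90 times as long. Hist1h1d went from 0.18 ± 0.028 TPM in M21 to 1.49 TPM in M4 while its M21 model is 9.98 times as long. Hist1h2bq and Hist1h2br moved the other way, from 8.24 and 8.18 TPM in M21 to 1.23 and 0.47 TPM in M4. Hist1h2ap kept its 482-base model and stood at 1764.8 ± 22.4 TPM in M4.

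**Figure D3:**
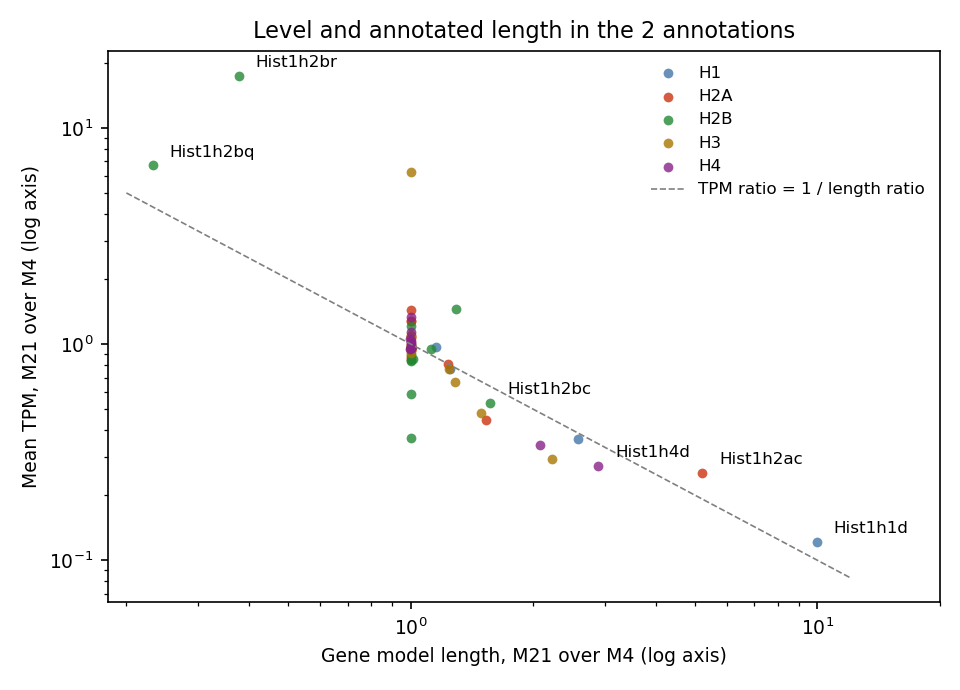
Ratio of mean TPM against ratio of gene model length, M21 over M4, both on log axes, for the 60 genes above 0 in both tables; the dashed line is the inverse of the length ratio. Genes with longer M21 models run down along the line to Hist1h1d, while Hist1h2bq and Hist1h2br lie at the upper left.

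Certainty of assignment went only in part with the share of sequence that a gene had to itself. Of the 67 genes, 28 had under 50% of their 100-base windows to themselves, and the median posterior SD was 34.7% of the count in the 26 of these with counts. In the 37 genes with counts and at least 50% unique windows it was 7.16%. The 5 genes with no unique window had a median of 11.2%, from 5.52% to 50.7%. A window also counted as shared where a gene outside the set held it on either strand. The 6 genes whose windows were all unique, among them Hist1h4d, Hist1h1b and Hist2h4, had posterior SDs of at most 0.067%. Among genes with a mean count of at least 20, the posterior SD reached 66.6% of the count in Hist1h2ah, 66.1% in Hist1h2ai, 50.7% in Hist2h2aa1, 47.0% in Hist2h3c1, 41.5% in Hist1h2bq and 35.96% in Hist1h2af. Across the set, 23 genes exceeded 25% in a library, and these are uncertain as single genes.

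**Figure D4:**
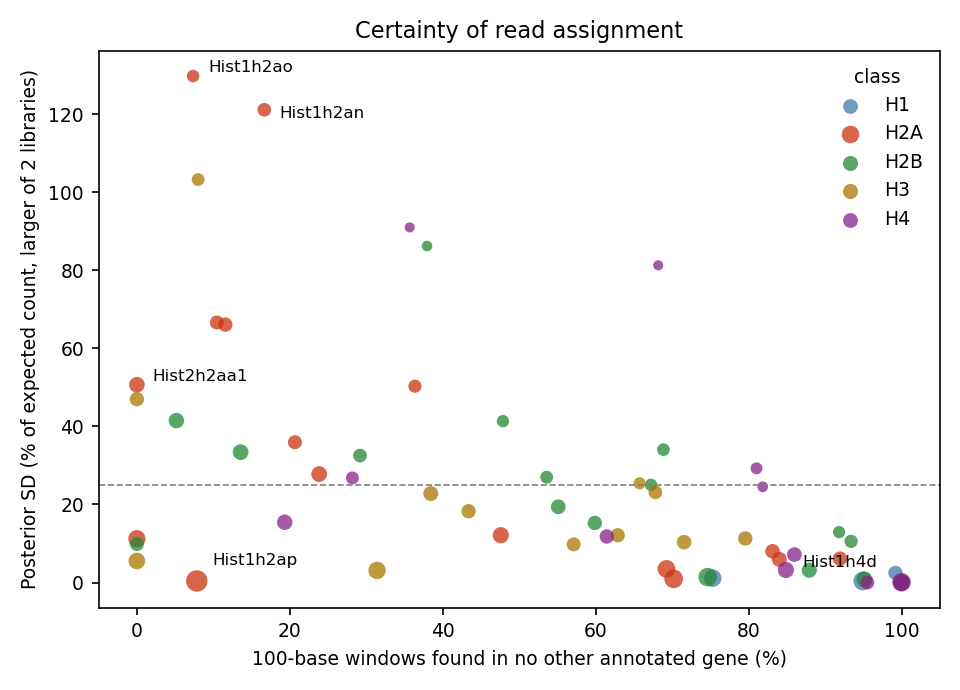
Posterior SD as a percent of the expected count (larger of the 2 libraries) against the percent of 100-base windows found in no other annotated gene, for the 63 genes with counts; point size grows with the count and the dashed line marks 25%. Hist1h2ap sits at 7.83% unique windows with 0.40%, and Hist1h2ao at 7.35% with 129.8%.

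The transcript tables split such reads further. A 381-base coding model of Hist1h2bq was identical to a 381-base model of Hist1h2br, and each received 39.8 counts in replicate 1 and 55.7 in replicate 2. These models made up 88.2 ± 1.39% of the TPM of Hist1h2bq and 89.2 ± 1.12% of that of Hist1h2br (SD, n = 2). Hist2h3c1 had all its reads on 1 of 2 models, but the authors' posterior means put 48.2% and 52.5% on it. In Hist1h2be the unspliced model, annotated as a processed transcript and not as coding, made up 72.4 ± 4.38% and held no stem-loop. In Hist1h2bp the single-exon model made up 73.8 ± 7.26%.

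Between the libraries, 52 members had a summed count of at least 20 and entered an exact conditional binomial test of replicate 2 against replicate 1 over 17970 genes, with Benjamini-Hochberg adjustment. A call needed an adjusted p below 0.05 together with a log2 ratio of 1 or more in size. Of all genes 1.44% were called (0.646% higher and 0.796% lower in replicate 2), and 4 of the 52 members were, 3 higher and 1 lower. Without the ratio threshold 9.63% of all genes passed, and 6 members did. The median log2 ratio of the members was 0.095, beside -0.00011 over all genes tested, and 27 members were higher and 25 lower in replicate 2.

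The called members were 3 H2A genes and 1 H3 gene, each with shared reads. Hist1h2an had 7.38 counts (posterior SD 8.94) against 31.7 (14.3), replicate 1 first, and thus a log2 ratio of 2.23 (95% interval 1.11 to 3.74; exact binomial test, adjusted p = 0.00085). Hist1h2af had 15.4 (5.53) and 36.3 (8.45), a log2 ratio of 1.35 (0.48 to 2.36; adjusted p = 0.024). Hist2h2aa1 had 58.2 (29.5) and 107.7 (31.0), a log2 ratio of 1.01 (0.54 to 1.5; adjusted p = 0.00052), and the ranges of 1 posterior SD around these counts overlapped after scaling.

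Hist2h3c1 had 45.2 (11.9) and 19.3 (9.06) counts, a log2 ratio of -1.10 (-1.98 to -0.32; adjusted p = 0.049 by the same test). The intervals cover counting error alone and not the assignment. Hist1h4n and Hist1h2br passed on p with log2 ratios of 0.84 (adjusted p = 0.014) and 0.71 (adjusted p = 0.019). The exact test of edgeR, which adds a common spread between the libraries, called Hist1h2an and Hist2h2aa1 and not the other called genes.

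**Figure D5:**
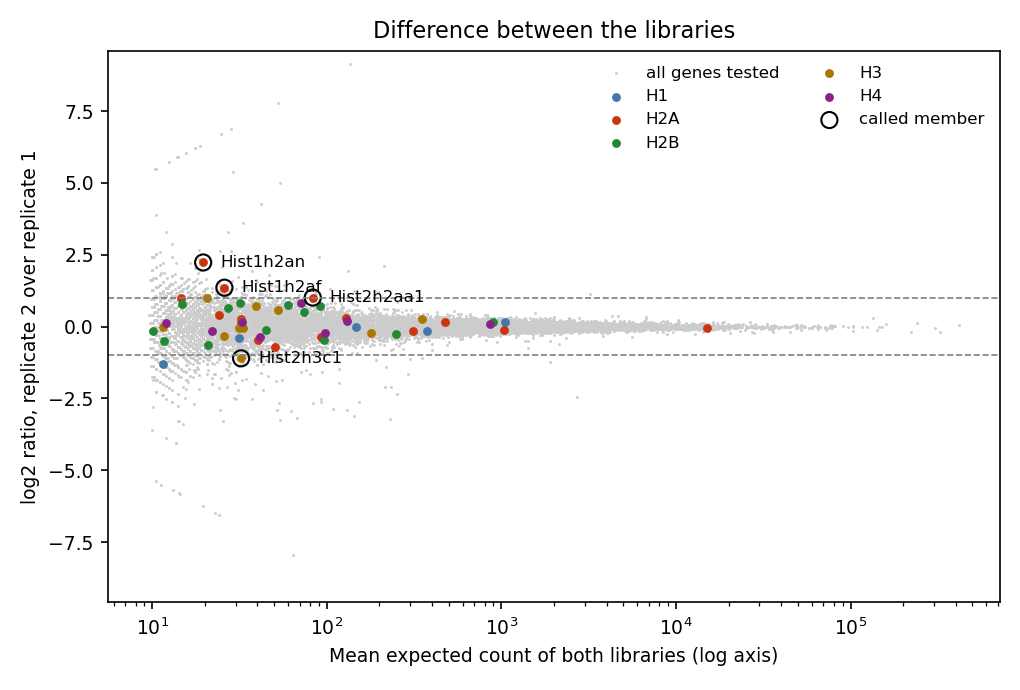
Log2 ratio of replicate 2 over replicate 1 against mean expected count (log axis) for the 17970 genes tested (grey) and the 52 members (coloured by class); dashed lines mark log2 ratios of 1 and -1 and rings mark the 4 called members. Hist1h2an, Hist1h2af and Hist2h2aa1 lie above the upper line and Hist2h3c1 below the lower, all at low counts, while Hist1h2ap lies near 0 at the right.

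When counts were summed over near copies, an alternative chosen after seeing the data, the groups holding the called genes had smaller differences. Members were linked where at least 50% of the 100-base windows of 1 gene occurred in another, which gave 7 groups holding 29 genes. Hist2h2aa1 and Hist2h2aa2 shared 528 identical bases and together had 399.2 and 393.0 counts, a log2 ratio of 0.098 (-0.11 to 0.30), while Hist2h2aa2 alone went from 341.0 to 285.4. Hist2h3b, Hist2h3c1 and Hist2h3c2 together had 288.9 and 237.2 counts, a log2 ratio of -0.17 (-0.42 to 0.087). The group of 10 H2A genes that holds Hist1h2ap, Hist1h2an and Hist1h2af had 16642.6 and 14963.8 counts, a log2 ratio of -0.033 (-0.065 to -0.0010). Of these counts Hist1h2ap alone had 15838.7 and 14121.5. The sum of this group therefore cannot show whether Hist1h2an and Hist1h2af differed.

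Over the whole set of 17953 genes and groups tested this way, 255 were called by the exact binomial test. Of the 35 groups and unlinked genes of the members none was, which is near that share. At an unadjusted p under 0.05 there were 13, and 2 passed after adjustment. These were Hist1h2bk, Hist1h2bq and Hist1h2br together, at a log2 ratio of 0.47 (0.17 to 0.78; adjusted p = 0.027), and Hist1h4m with Hist1h4n, at 0.84 (0.34 to 1.36; adjusted p = 0.014), where Hist1h4m had no counts.

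Many H2A and H2B genes are arranged head to head around a shared promoter. Of the members, 12 such pairs had starts within 500 bases, each an H2A with an H2B gene. In 11 pairs with counts the higher gene exceeded the lower by a median of 5.74 times in mean TPM, from 1.02 times (Hist1h2bf and Hist1h2ad) to 203 times (Hist1h2ap and Hist1h2br). Hist1h2bc exceeded Hist1h2ac 62.7 times, at 36.4 against 0.58 TPM. Hist2h2ac and Hist2h2be stood at 4.02 and 4.18 TPM, within the spread of the libraries. Most of the pairs held a gene with a posterior SD over 25% of its count, among them Hist1h2br (33.4%) and Hist1h2ad (50.3%). Hist1h2bf and Hist1h2ad changed order, at 1.58 and 0.84 TPM in replicate 1 and 1.14 and 1.82 in replicate 2. Their folds are therefore uncertain. Hist1h2bc with Hist1h2ac and Hist2h2ac with Hist2h2be had posterior SDs of at most 8% of the count. Between these better assigned pairs, levels in TPM ranged from within the spread of the libraries to far apart. In counts the genes of both pairs differed. In replicate 1 Hist2h2ac, with a 520-base model, had 48.01 counts and Hist2h2be, with a 2620-base model, had 280. Hist1h2ac, with a 2482-base model, had 32.32 and Hist1h2bc, with a 1156-base model, had 891.15. Replicate 2 went the same way in both pairs. The part of model length in these folds was not tested.

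The region between the most unequal pair is shown because both genes start from it. It is the 235 bases between the annotated starts of Hist1h2ap and Hist1h2br, from RefSeq's GRCm38.p6 promoter windows (chr13:21833508-21833742, plus strand, so that Hist1h2br is read to the right), with CCAAT motifs in capitals on either strand.
Hist1h2ap to Hist1h2br: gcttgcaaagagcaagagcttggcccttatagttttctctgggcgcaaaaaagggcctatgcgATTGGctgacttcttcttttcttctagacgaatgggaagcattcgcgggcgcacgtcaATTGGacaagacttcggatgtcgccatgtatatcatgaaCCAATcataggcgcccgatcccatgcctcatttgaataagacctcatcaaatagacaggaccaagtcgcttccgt
The motif CCAAT stood there 1 time on the plus strand and 2 times reversed, as ATTGG. Of the members, 62 matched a RefSeq window of 250 bases before to 50 after the start, and 53 of these (85.5%) held CCAAT on either strand, beside 37.4% of all 32851 windows. TATAAA was held by 35 (56.5%), beside 13.6% of all windows, and was absent from the stretch shown. A match is a description of letters only.

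The genes that serve these histones were expressed throughout. Of 15 genes of histone gene transcription and 3′ end processing, 14 were detected with a median of 28.4 ± 3.34 TPM. The stem-loop binding protein Slbp led at 105.8 and 108.8 TPM, followed by Srrt at 83.3 and 83.5 TPM and the cap-binding Ncbp2 at 62.2 and 66.2 TPM. Zfp473, a zinc finger protein of the U7 machinery, stood at 0.61 and 0.76 TPM. Of 6 listed decay genes 4 matched by symbol and all 4 were detected, with Lsm1 at 30.5 ± 1.1, Upf1 at 19.5 ± 0.48 and Dcp2 at 15.9 ± 3.01 TPM.

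All 10 cleavage and polyadenylation genes were detected, with Papola, the poly(A) polymerase, at 158 ± 3.57 TPM, Pabpn1 at 77.2 ± 2.47 and Nudt21 at 67.0 ± 3.25. All 21 histone chaperones were detected, led by Rbbp7 at 329 ± 8.59, Rbbp4 at 267 ± 1.37 and Nap1l4 at 187 ± 3.44 TPM. All 26 S phase genes were detected (median 66.2 ± 0.30 TPM), including Rrm2 at 219 ± 1.71, Ccna2 at 153 ± 2.31 and Mcm6 at 146 ± 0.49 TPM. None of the 76 tested genes of these 5 lists was called between the libraries, beside 1.44% of all genes tested.

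Replication-independent histone genes, most of whose mRNAs are polyadenylated in the ordinary way, gave a contrast in level. Of 14, 11 were detected, and they summed to 4008 and 3994 TPM with a median of 145 ± 0.053. H3f3a stood at 1307 and 1258 TPM, H2afz at 997 and 1016 TPM and H3f3b at 581 and 591 TPM. Hils1 at 0.05 and 0.23 TPM, H1foo at 0.10 and 0 TPM and H1fnt with no counts, all germ cell genes, stood under 1 TPM. None of the 11 tested was called between the libraries, beside 1.44% of all genes tested. H3f3a alone had 14.9 times the mean TPM of all replication-dependent H3 genes summed.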

How the data were processed

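RNA of 2 oligo-dT-primed libraries of embryonic heart was analysed from the authors' gene and transcript tables on GENCODE M21 and, as an alternative, M4 (mm10, per the file headers and deposited notes). The authors deposited expected counts, in which reads that fit several loci are shared out; tests used their rounded values. TPM as deposited is scaled by effective length to a fixed sum, and FPKM as deposited by length and depth. Further deposited columns hold the percent of a gene's level on each transcript and the posterior SD of each count. Which aligner and counter were used, in which version and with what strand setting, was not given in the sources used here. Gene identifiers were matched to GENCODE M21, and 26248 rows with numeric identifiers were left out.

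The members, gene lists and tests were chosen with earlier results of these data known. Detection meant a TPM of at least 1 in both libraries. Named are the 20 members with the highest mean TPM, the 3 highest of each class and cluster, each called member, 3 testis genes, the 6 largest posterior SDs at a mean count of at least 20, and of each list the 3 highest and up to 2 members under 1 TPM (a further gene, H1fnt, was named after its values were seen). Libraries were compared by a two-sided exact binomial test, conditional on each gene's sum, with TMM scaling (edgeR 4.0.16, R 4.3.3), where that sum was at least 20; 0.5 was added to scaled counts for ratios. It covers counting error only and compares those libraries, not conditions. It was tested on simulated data. DESeq2 1.42.0 gave size factors for an alternative. The stem-loop was planned to be searched in the genome, but only transcripts were used here, so the search stopped at annotated ends. Windows of 100 bases follow the 99-base gap between deposited length and effective length. Motif and sequence counts used Python 3.11.15, pandas 2.3.3 and SciPy 1.17.1.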

Additional observations from a re-analysis of the deposited data

How the results depend on the processing

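Detection was 45 members; it ranged from 38 to 51 with a TPM of at least 0.5, posterior means, FPKM, M4 or a count above 2 posterior SDs, was 48 and 49 without each library, and fell to 19 at a TPM of at least 5. The summed TPM of 2099.5 was 2040.8 with posterior means, 2626 rescaled to nuclear protein-coding genes and 2383 on M4. It was 2036 without the 27 members whose posterior SD exceeded 25% of the count in a library, a count of 0 included. It was 435 without Hist1h2ap (chosen after seeing the data), and 2089.9 to 2109 with a library left out. On M4 the sums were 67.7 for H1, 1956 for H2A, 102 for H2B, 165 for H4, 2276 for Hist1 and 75.8 for Hist2. With posterior means they were 1756 for H2A, 1938 for Hist1 and 73.8 for Hist2. The cause of the changes was not tested. With 4 members called between the libraries, other scalings, filters and pseudocounts gave 3 to 4, M4 5, no ratio threshold 6, the edgeR exact test 2, and counts summed over near copies 0. The median log2 ratio of members ranged from 0.014 (M4) to 0.11. An end more than 50 or 200 bases past the stem-loop was found in 26 and 18 genes in place of 23. Posterior means gave dominant transcript shares of 91.2% for Hist1h2bq, 84.7% for Hist1h2br and 50.3% for Hist2h3c1. Of 30 named members, 13 moved by more than the SD on M4 and 6 with posterior means. No paired analysis was possible because the design has a single group. A summed count under 20 kept 15 members out of the test, and the part of depth or of shared reads in this was not tested. Of the members, 23 had posterior SDs over 25% of the count, and an SD of 2 libraries is itself imprecise.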
